A study of Mus musculus with 12 samples.

Results

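The genes of the hypoxia-inducible factor (HIF) subunits and of the enzymes that set HIF levels by oxygen were examined in Neuro-2a cells, a mouse neuroblastoma line. They are 10 named genes of the 55401 gene identifiers in the count tables: the alpha subunits Hif1a, Epas1 and Hif3a, the beta subunits Arnt and Arnt2, the prolyl hydroxylases Egln1, Egln2 and Egln3, the asparaginyl hydroxylase Hif1an, and Vhl. They were chosen by name, with earlier results of these data known, and each symbol matched 1 Ensembl identifier. Of the 10 genes, 7 had enough reads to be among the 17569 genes tested, and Epas1, Hif3a and Arnt2 did not.

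Cells of all groups received 1 µg of a GFP plasmid together with 3 µg of plasmid coding for an artificial microRNA in a miR30 backbone. The microRNA was a scramble sequence (miScramble, here scramble), a pool of 3 constructs against Rbmx (miRbmx, here Rbmx knockdown) or a pool of 2 constructs against Rbmxl1 (miRbmxl1, here Rbmxl1 knockdown). GFP-positive cells were sorted 48 hours after transfection, which was done in 1 well per condition, and total RNA depleted of ribosomal RNA was sequenced. Each group held 4 libraries labelled as biological replicates 1 to 4. The labels give no oxygen level and name no hypoxia treatment, and the reduction was transient, in a single cell line. They do not say that the replicates were separate experiments, so p-values measure only the spread between these libraries.

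HIF is a transcription factor made of an oxygen-regulated alpha subunit and a stable beta subunit. When oxygen is present, the prolyl hydroxylases mark the alpha subunit, and VHL, the recognition part of a ubiquitin ligase, binds the marked protein and sends it to the proteasome. HIF1AN, also called FIH, hydroxylates an asparagine and blocks the contact with coactivators. Control of the alpha subunit therefore acts mainly on the protein, which was not measured here, while Egln1 and Egln3 are themselves known HIF target genes and form a negative feedback loop. Rbmx encodes an RNA-binding protein of the nucleus, and Rbmxl1 is a retrocopy of it.

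Of the 7 genes tested, Egln1 and Egln3 were those whose RNA passed the test in a knockdown, and the third prolyl hydroxylase, Egln2, did not. The stretches of 250 bases before the RefSeq start sites of these 3 genes (build GRCm38.p6, written 5′ to 3′ on the gene's strand) are therefore shown. Capitals mark the letters ACGTG and GCGTG, the core of the known HIF binding element, or their complement.

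Egln1, chr8:124949255-124949504, minus strand: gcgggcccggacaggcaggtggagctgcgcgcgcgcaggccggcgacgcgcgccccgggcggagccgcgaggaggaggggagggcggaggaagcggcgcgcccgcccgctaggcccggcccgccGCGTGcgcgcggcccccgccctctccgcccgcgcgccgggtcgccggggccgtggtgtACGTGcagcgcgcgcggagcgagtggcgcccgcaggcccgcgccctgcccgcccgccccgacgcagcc

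Egln3, chr12:54203875-54204124, minus strand: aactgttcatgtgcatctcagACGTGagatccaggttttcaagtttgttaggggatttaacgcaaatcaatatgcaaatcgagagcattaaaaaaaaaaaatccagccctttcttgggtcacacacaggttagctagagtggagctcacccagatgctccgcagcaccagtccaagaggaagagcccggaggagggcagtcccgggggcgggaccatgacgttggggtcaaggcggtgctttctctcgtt

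Egln2, chr7:27166803-27167052, minus strand: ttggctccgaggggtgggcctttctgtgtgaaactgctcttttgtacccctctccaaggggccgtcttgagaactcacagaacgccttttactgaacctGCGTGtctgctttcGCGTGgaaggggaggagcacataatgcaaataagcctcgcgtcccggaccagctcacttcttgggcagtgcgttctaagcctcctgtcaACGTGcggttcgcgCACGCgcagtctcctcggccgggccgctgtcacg

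The Egln1 stretch, 86.0% G or C, held ACGTG at −68 to −64 and GCGTG at −126 to −122 relative to the start site. The Egln3 stretch, 50.8% G or C, held a single match, ACGTG at −229 to −225. The Egln2 stretch held ACGTG at −48 to −44 and 3 matches to GCGTG, 1 of them on the opposite strand. A second annotated Egln2 start, with 1 GCGTG, is not shown. Among the other genes, Hif1a had 3 matches to ACGTG, 2 of them the same palindrome read on both strands, Hif3a had 2 matches to GCGTG, Arnt had 1, and Vhl, Hif1an and Arnt2 had none. Over all 32851 promoter stretches of this length, searched on both strands, 16.6% held ACGTG, 28.2% held GCGTG and 38.6% held either. The letters were thus present before genes that passed the test and before genes that did not.

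Between 43.1 and 52.24 M reads per library fell in genes, and 3 reads correspond to 0.05569 to 0.06979 CPM (counts-per-million values), the limit that a count of 0 allows in a library (counting error only). The targeted genes were measured as a check of the labels. Rbmx stood at 57.6 to 73.3 CPM in scramble and 22.2 to 32.6 CPM in the Rbmx knockdown (log2 fold change −1.30 ± 0.08 SE, adjusted p = 2.11e-07, edgeR quasi-likelihood test). Rbmxl1, at 31.3 to 36.7 CPM in scramble, stood at 12.3 to 16.7 CPM in the Rbmxl1 knockdown (log2 fold change −1.27 ± 0.09, adjusted p = 3.21e-06, edgeR). Rbmx was also higher in the Rbmxl1 knockdown, at 81.9 to 90.0 CPM (0.36 ± 0.07, adjusted p = 0.0165, edgeR, and 0.444 without the block described next), while Rbmxl1 in the Rbmx knockdown did not pass (0.08 ± 0.09, adjusted p = 0.601). All 12 neuroblastoma markers were detected, with summed levels of 1930 to 2558 CPM in scramble, 2025 to 2682 in the Rbmx knockdown and 2044 to 2483 in the Rbmxl1 knockdown. The 8 markers of fibroblasts, blood, endothelial, epithelial and glial cells summed to 35.1 to 40.2, 36.5 to 49.3 and 30.3 to 50.9 CPM, mostly from Pdgfrb, and none of the 4 that could be tested was called. Col3a1, Ptprc and Epcam had a count of 0 in all scramble libraries. Libraries 1 and 2 of every group stood apart from libraries 3 and 4. Log2 deviations from the group mean correlated at 0.195 to 0.524 between same-numbered libraries of different groups, at 0.100 to 0.431 between different numbers of the same set, and at −0.573 to −0.129 between numbers of different sets. The replicate number was a block in the test. These values separate the sets, while the ranges for the same number and for another number of the same set overlap. The calls on the HIF and pathway genes below are all lost without the block.

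Levels of the 7 tested genes were compared per kilobase of annotated exon. In scramble, Egln2 was highest at 37.0 ± 1.76 CPM per kb (SD, n = 4), followed by Hif1a at 28.8 ± 1.96 and Egln1 at 28.6 ± 4.20. Vhl stood at 16.8 ± 0.933, Hif1an at 10.6 ± 0.270 and Arnt at 6.64 ± 0.133 CPM per kb. Egln3 was lowest at 0.558 ± 0.287 CPM per kb. In scramble, only the neighbours Hif1a and Egln1 overlapped in their 4 libraries. In the Rbmx knockdown Egln1 had the highest mean, 39.7 ± 13.7 CPM per kb, but its libraries spanned those of Egln2 (34.1 ± 2.54) and overlapped those of Hif1a (29.4 ± 1.25). The means in the Rbmxl1 knockdown were 37.4 ± 8.49 for Egln1, 33.4 ± 3.19 for Egln2 and 28.3 ± 1.53 for Hif1a, and Egln1 overlapped both. The lower end of the order was the same in all groups, with Egln3 at 1.20 ± 0.819 and 1.22 ± 0.938 CPM per kb in the knockdowns. The order depended on the length used. With the length of the longest transcript in place of all exons, Arnt (12.3 CPM per kb in scramble) came above Hif1an (11.4). By that length Egln2 had a higher mean than Egln1 in the Rbmx knockdown (45.4 and 39.7) and in the Rbmxl1 knockdown (44.4 and 37.4).

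**Figure D1:**
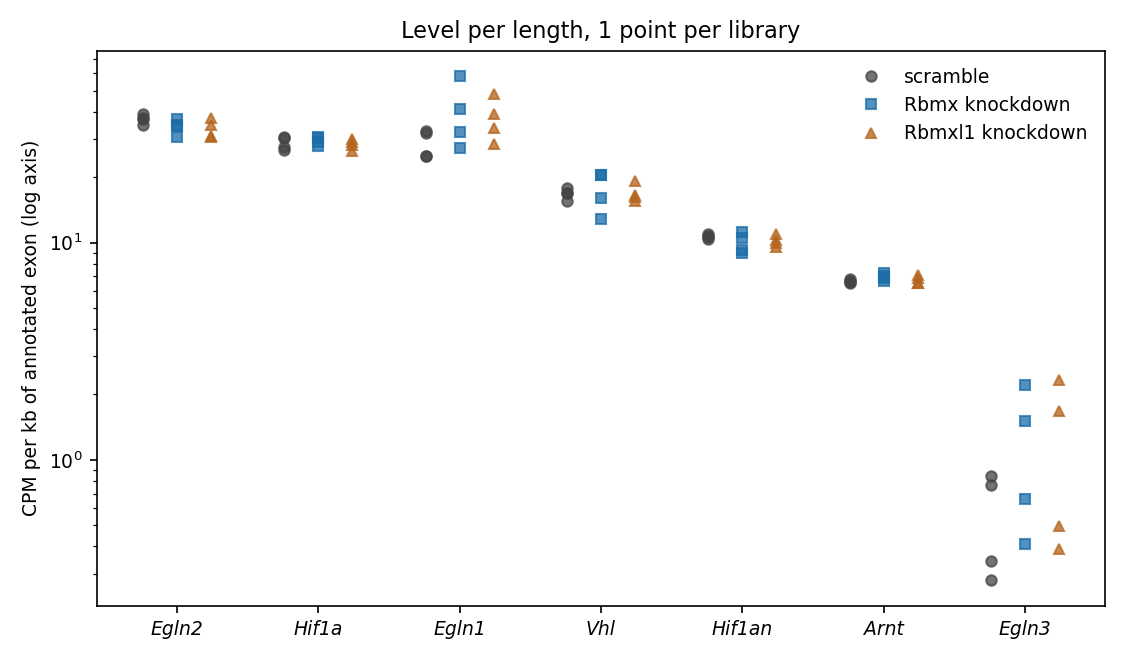
Level in CPM per kb of annotated exon (log axis) for the 7 tested genes, with 1 point per library and 1 symbol per group. Egln2, Hif1a and Egln1 lie together at the top, Egln3 lies lowest in every group, and Egln1 and Egln3 are the most spread within a group.

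In the Rbmx knockdown 2 of the 7 tested genes were called at an adjusted p under 0.05, both higher, beside 8.35% of all genes called in this comparison. The Rbmxl1 knockdown had 1 of 7 called, higher, beside 4.46% of all genes. The median log2 fold change of the 7 genes was 0.04 and 0.01, and that of all tested genes was 0.00 and 0.01. The knockdowns share their scramble libraries, so their changes against scramble are not independent of each other. Without the block no member was called in either comparison, and over all genes 1 was called in each, with 1919 and 1487 genes at an unadjusted p under 0.05.

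**Figure D2:**
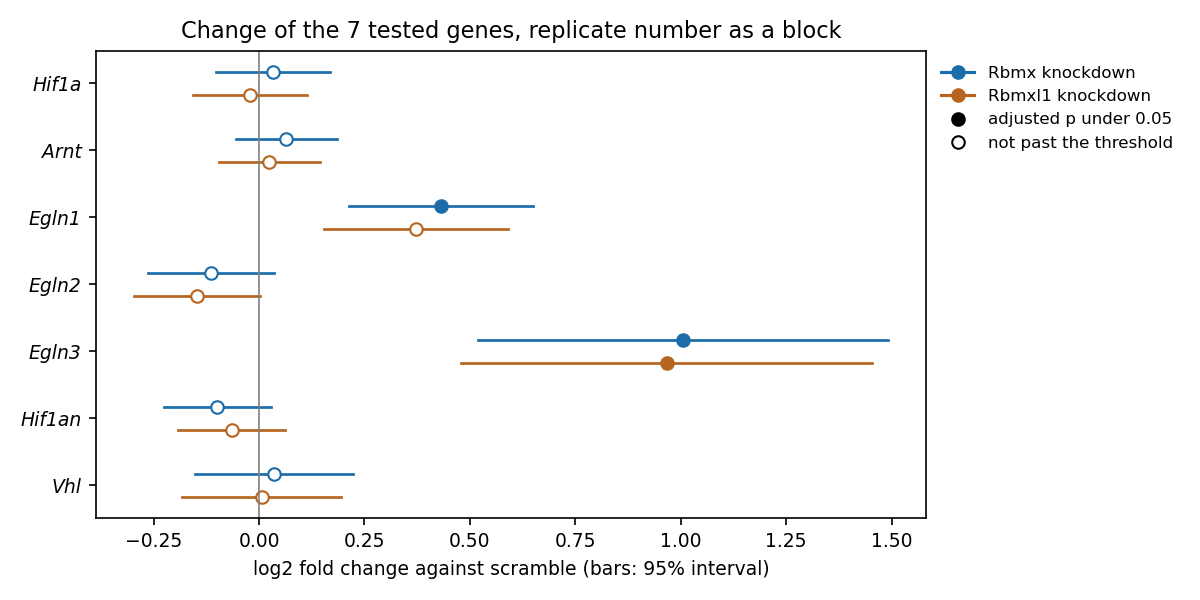
Log2 fold change of each tested gene against scramble with its 95% interval, from edgeR with the replicate number in the model. The intervals of Egln1 and Egln3 lie above 0 in both knockdowns, and filled points mark an adjusted p under 0.05.

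Hif1a (ENSMUSG00000021109, chr12:73901375-73947530, plus strand) encodes the widely expressed alpha subunit. It measured 157.54, 179.61, 161.81 and 179.38 CPM in scramble replicates 1 to 4, 170.6, 181.19, 177.6 and 164.69 CPM in the Rbmx knockdown, and 175.79, 154.92, 165.76 and 171.32 CPM in the Rbmxl1 knockdown. The groups overlapped fully, and the highest of the 12 libraries was 1.17 times the lowest. The log2 fold change was 0.03 ± 0.06 in the Rbmx knockdown (95% interval −0.10 to 0.17, adjusted p = 0.786, edgeR) and −0.02 ± 0.06 in the Rbmxl1 knockdown (−0.16 to 0.11, adjusted p = 0.895). Neither passed the test. Exons of Hif1a share 478 bases with the annotated genes Gm15283 and Gm49321, which held 0 to 6 reads and 0 reads per library.

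Epas1 (ENSMUSG00000024140, chr17:86753700-86833410), which encodes the alpha subunit known from endothelium and from neural crest tumours, had a count of 0 in all 12 libraries. This allows a level of up to 0.05569 to 0.06979 CPM per library. Hif3a (ENSMUSG00000004328, chr7:17031507-17062427), a less studied alpha subunit with inhibitory forms, had 0 to 4 reads per library in scramble, 0 to 10 in the Rbmx knockdown and 4 to 13 in the Rbmxl1 knockdown. With no filter on low counts, the fitted log2 fold change of Hif3a was 0.88 ± 0.88 in the Rbmx knockdown (adjusted p = 0.831, edgeR) and 1.99 ± 0.83 in the Rbmxl1 knockdown (adjusted p = 0.199). Hif3a stood at 0.285, 0.189, 0.0896 and 0.199 CPM in the Rbmxl1 knockdown and at 0.0460, 0.0698, 0 and 0.0780 CPM in scramble. Scramble replicate 4 and Rbmxl1 knockdown replicate 3 both held 4 reads, so these groups met in their counts. The unadjusted p of the Rbmxl1 knockdown was 0.0161 (edgeR) and did not hold after adjustment. Among the alpha subunits, Hif1a was therefore the one with reads enough for a test.

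Arnt (ENSMUSG00000015522, chr3:95434388-95497240, plus strand) encodes the general beta subunit. It measured 52.743, 53.021, 54.674 and 52.215 CPM in scramble, 58.02, 55.04, 56.003 and 53.311 CPM in the Rbmx knockdown, and 52.312, 52.129, 55.237 and 56.665 CPM in the Rbmxl1 knockdown. It was the steadiest of the 7 genes, with an SD of 0.05 on the log2 scale over the 12 libraries, beside a median of 0.26 over all tested genes. Each Rbmx knockdown library was above the scramble library of its number, but the groups overlapped and the change, 0.06 ± 0.06 (−0.06 to 0.18, adjusted p = 0.522, edgeR), did not pass the test. The Rbmxl1 knockdown gave 0.02 ± 0.06 (−0.10 to 0.15, adjusted p = 0.859). Arnt2 (ENSMUSG00000015709, chr7:84246278-84410176), the beta subunit known from neurons, had a count of 0 in 11 libraries and 3 reads in Rbmxl1 knockdown replicate 2.

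Egln1 (ENSMUSG00000031987, chr8:124908587-124949324, minus strand) encodes the prolyl hydroxylase with the main part in keeping HIF-1 alpha low in normal oxygen. It measured 114.15, 117.63, 89.538 and 90.176 CPM in scramble, 147.14, 209.88, 115.48 and 98.034 CPM in the Rbmx knockdown, and 173.6, 140.76, 120.53 and 102.38 CPM in the Rbmxl1 knockdown. Within each number, both knockdown libraries were above the scramble library. Libraries 1 and 2 were above libraries 3 and 4 in every group, so that the knockdown libraries numbered 4 lay below the scramble libraries numbered 1 and 2 and the groups overlapped.

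Egln1 rose in the Rbmx knockdown by a log2 fold change of 0.43 ± 0.10 (95% interval 0.21 to 0.65, adjusted p = 0.0202, edgeR). Its change in the Rbmxl1 knockdown, 0.37 ± 0.10 (0.15 to 0.59), had an adjusted p of 0.0503 and did not pass. The ratios of same-numbered libraries, on the log2 scale, were 0.37, 0.84, 0.37 and 0.12 for the Rbmx knockdown and 0.60, 0.26, 0.43 and 0.18 for the Rbmxl1 knockdown. Without the block the changes were 0.47 ± 0.22 (adjusted p = 0.451, edgeR) and 0.38 ± 0.22 (adjusted p = 0.674). The call in the Rbmx knockdown was lost without scramble replicate 1 (adjusted p = 0.0644), 2 (0.0784) or 3 (0.0724), and without Rbmx knockdown replicate 2 (0.0670) or 3 (0.0513). Without Rbmx knockdown replicate 2 the change itself was 0.27. The call was also lost with replicate number 3 left out of all groups. In the Rbmxl1 knockdown Egln1 passed without scramble replicate 4 (adjusted p = 0.0477), Rbmx knockdown replicate 2 (0.00916) or Rbmxl1 knockdown replicate 2 (0.0138). It also passed there with replicate number 2 left out of all groups. In bulk RNA, more transcript per cell and a different mix of sorted cells cannot be told apart.

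Within the sets, Egln1 changed by 0.62 ± 0.15 in replicates 1 and 2 (adjusted p = 0.125, edgeR) and by 0.24 ± 0.07 in replicates 3 and 4 (adjusted p = 0.0456) of the Rbmx knockdown. For the Rbmxl1 knockdown these values were 0.45 ± 0.15 (adjusted p = 0.231) and 0.30 ± 0.07 (adjusted p = 0.0224). The change was positive in each set and each knockdown.

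Egln3 (ENSMUSG00000035105, chr12:54178981-54203860, minus strand) encodes the prolyl hydroxylase best known as a hypoxia-induced transcript and for its link to apoptosis of neurons after loss of growth factor. It measured 2.0463, 2.2334, 0.7426 and 0.91639 CPM in scramble, 4.0052, 5.8732, 1.7679 and 1.0956 CPM in the Rbmx knockdown, and 6.1828, 4.4736, 1.321 and 1.0375 CPM in the Rbmxl1 knockdown. These levels rest on 40 to 96, 50 to 272 and 47 to 282 reads per library. Every knockdown library was above the scramble library of its number, while the groups overlapped because libraries 3 and 4 were low in all groups. The highest of the 12 libraries was 8.33 times the lowest.

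Egln3 rose by a log2 fold change of 1.01 ± 0.23 in the Rbmx knockdown (95% interval 0.52 to 1.49, adjusted p = 0.0165, edgeR) and by 0.97 ± 0.23 in the Rbmxl1 knockdown (0.48 to 1.45, adjusted p = 0.0309). Ratios of same-numbered libraries were 0.97, 1.39, 1.25 and 0.26 for the Rbmx knockdown and 1.60, 1.00, 0.83 and 0.18 for the Rbmxl1 knockdown, lowest at number 4 in both. Without the block the changes were 1.11 ± 0.63 (adjusted p = 0.560, edgeR) and 1.14 ± 0.63 (adjusted p = 0.669). The call in the Rbmx knockdown was lost without scramble replicate 1 (adjusted p = 0.0634), 2 (0.0603) or 3 (0.0650), or Rbmx knockdown replicate 2 (0.0791) or 3 (0.0621). In the Rbmxl1 knockdown it was lost without scramble replicate 1 (adjusted p = 0.110), 2 (0.103) or 3 (0.0971), or Rbmxl1 knockdown replicate 1 (0.141). With a whole replicate number left out of all groups, the Rbmx knockdown call of Egln3 was lost without number 2 or 3. Its Rbmxl1 knockdown call was lost without number 1, 2 or 3 and kept only without number 4. In replicates 1 and 2 alone the changes were 1.21 ± 0.26 and 1.33 ± 0.26 (adjusted p = 0.124 and 0.0854), and in replicates 3 and 4 alone 0.75 ± 0.34 and 0.48 ± 0.34 (adjusted p = 0.178 and 0.471, edgeR). The sign was the same in both sets, and neither set alone passed the test.

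**Figure D3:**
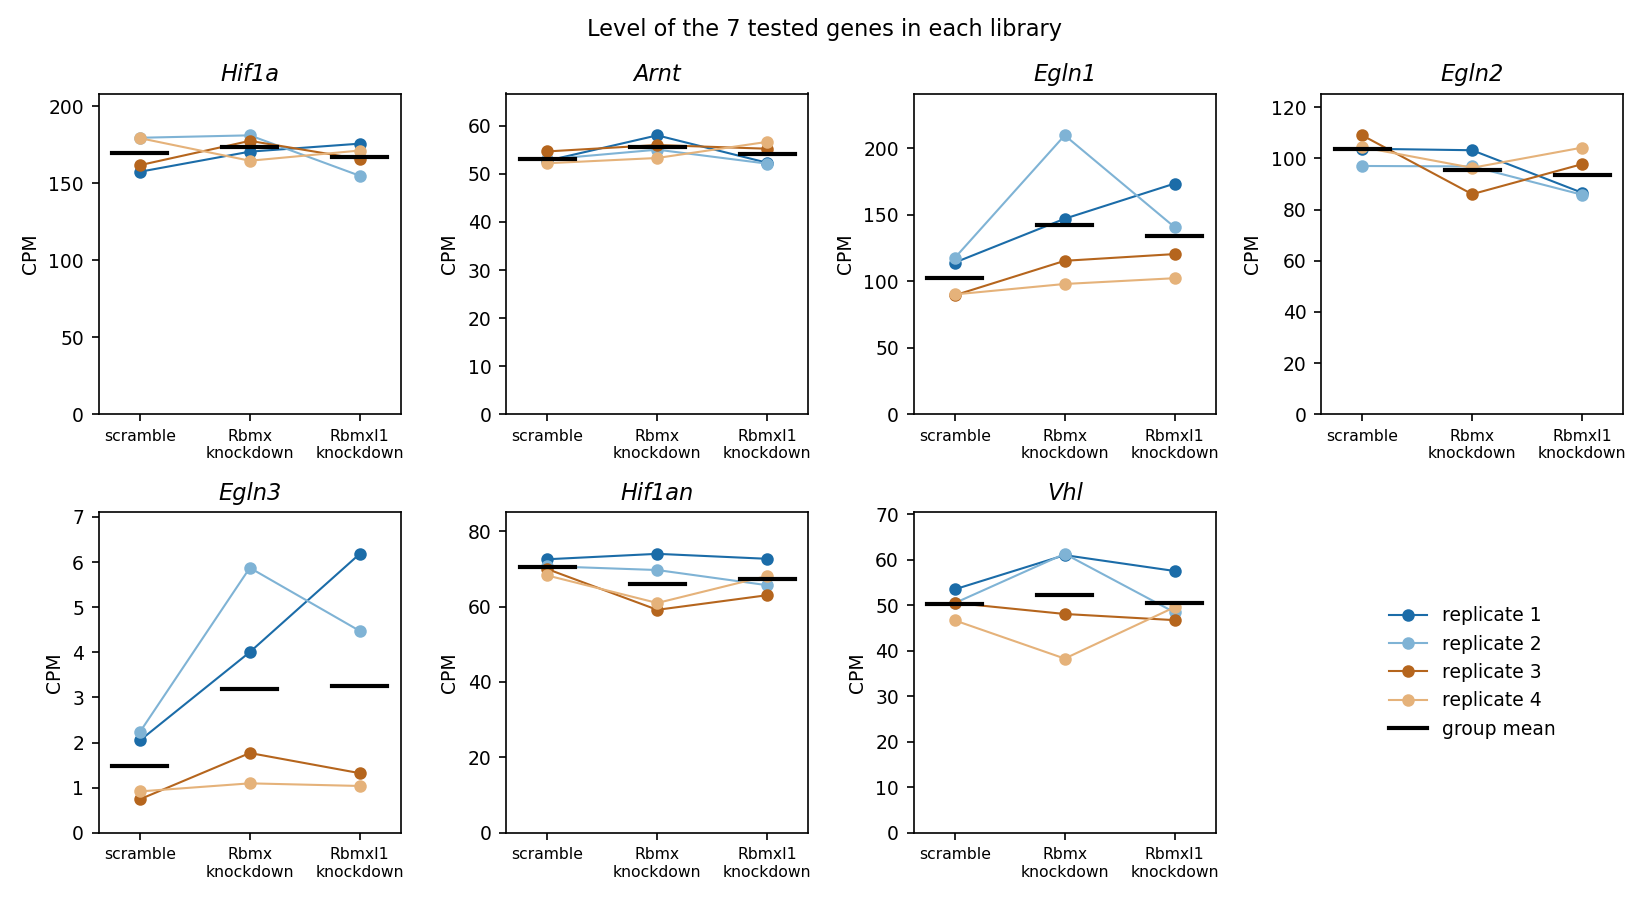
CPM of the 7 tested genes in each library, with groups on the x axis, lines joining libraries of the same replicate number and black bars for group means. In the panels of Egln1 and Egln3 the blue lines (replicates 1 and 2) lie above the orange ones (replicates 3 and 4) and all rise from scramble to both knockdowns, while the lines of Hif1a and Arnt cross.

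Egln2 (ENSMUSG00000058709, chr7:27158658-27166802, minus strand) encodes the prolyl hydroxylase that is not known as hypoxia-induced. It measured 103.79, 97.038, 109.01 and 104.37 CPM in scramble, 103.19, 96.865, 86.018 and 96.324 CPM in the Rbmx knockdown, and 86.58, 85.796, 97.756 and 104.21 CPM in the Rbmxl1 knockdown. All knockdown libraries were below the scramble library of their number, several by very little, and the groups overlapped. The changes, −0.11 ± 0.07 (−0.26 to 0.03, adjusted p = 0.336, edgeR) and −0.15 ± 0.07 (−0.30 to 0.00, adjusted p = 0.257), did not pass the test. In the Rbmx knockdown the change was 0.00 ± 0.08 in replicates 1 and 2 and −0.24 ± 0.07 in replicates 3 and 4, where it passed (adjusted p = 0.0382, edgeR). Whether the sets differ was not tested. Exons of Egln2 share 11 bases with Cyp2t4 on the opposite strand.

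Hif1an (ENSMUSG00000036450, chr19:44562850-44576274, plus strand) measured 72.539, 70.702, 69.934 and 68.242 CPM in scramble, 73.975, 69.68, 59.126 and 60.937 CPM in the Rbmx knockdown, and 72.658, 65.654, 63.007 and 68.121 CPM in the Rbmxl1 knockdown. The lowest libraries were Rbmx knockdown replicates 3 and 4, and the groups overlapped. The changes were −0.10 ± 0.06 (−0.23 to 0.03, adjusted p = 0.328, edgeR) and −0.06 ± 0.06 (−0.19 to 0.06, adjusted p = 0.598). Neither passed, also not in replicates 3 and 4 alone, where the Rbmx knockdown gave −0.21 ± 0.07 (adjusted p = 0.0670).

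Vhl (ENSMUSG00000033933, chr6:113623959-113631633, plus strand) measured 53.502, 50.485, 50.515 and 46.677 CPM in scramble, 61.019, 61.302, 48.087 and 38.28 CPM in the Rbmx knockdown, and 57.53, 48.432, 46.729 and 49.579 CPM in the Rbmxl1 knockdown. The Rbmx knockdown held both the highest and the lowest of the 12 libraries. Its change was 0.04 ± 0.09 (−0.15 to 0.22, adjusted p = 0.842, edgeR), made up of 0.24 ± 0.09 in replicates 1 and 2 and −0.18 ± 0.09 in replicates 3 and 4 (adjusted p = 0.203 and 0.221). For the Rbmxl1 knockdown the estimate was 0.01 ± 0.09 (−0.18 to 0.19, adjusted p = 0.981). Vhl thus had a mean near that of scramble in both knockdowns and a wide spread in one of them.

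The knockdowns were also set against each other directly, where 0 of the 7 genes and 0.0114% of all tested genes were called (edgeR, 1002 genes at an unadjusted p under 0.05). The difference, Rbmx knockdown minus Rbmxl1 knockdown, was 0.06 for Egln1 (95% interval −0.16 to 0.28, adjusted p = 0.957) and 0.04 for Egln3 (−0.42 to 0.50, adjusted p = 0.988). For the other 5 genes it ran from −0.03 for Hif1an (−0.16 to 0.09) to 0.06 for Hif1a (−0.08 to 0.19). The interval of Egln3 is wide enough to hold a difference of 0.50 on the log2 scale, so equal responses are not shown.

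The 7 genes differed in how far their libraries lay apart. The SD of log2 CPM over the 12 libraries was 1.06 for Egln3 and 0.38 for Egln1, above the median of 0.26 over all tested genes. It was 0.19 for Vhl, 0.12 for Egln2, 0.10 for Hif1an, 0.08 for Hif1a and 0.05 for Arnt. Libraries 1 and 2 minus libraries 3 and 4, on the log2 scale, gave 1.33, 1.77 and 2.13 for Egln3 and 0.37, 0.72 and 0.49 for Egln1 in scramble, Rbmx knockdown and Rbmxl1 knockdown. For Egln3 this difference between sets within a group was larger than its change between groups. What separates the sets is not in the labels, and the changes within each set stand beside each gene above.

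Among 13055 genes at 1 CPM or more in each group, the libraries of Egln1 were followed most closely by Slc2a1 (Pearson r = 0.989 of log2 CPM over the 12 libraries), Slc2a3 (0.986) and P4ha1 (0.984). Slc2a1 and Slc2a3 encode glucose transporters, and P4ha1 encodes a collagen prolyl hydroxylase. For Egln3 the closest were Narf (0.981), Ywhah (0.976) and Gng2 (0.970). After the mean of each replicate number was removed, the values were 0.983, 0.970 and 0.982 for Egln1 and 0.937, 0.927 and 0.882 for Egln3. These are descriptions, since the 12 points share the replicate sets and the groups.

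The remaining genes of the pathway were read from lists. The partners of VHL in its ligase, Elob, Eloc, Cul2 and Rbx1, had 0 of 4 called in either knockdown, beside 8.35% and 4.46% of all genes. Their median log2 fold change was 0.05 and 0.02. Of 16 regulators of HIF protein or its activity, 15 could be tested, and in the Rbmx knockdown 1 was called, beside 8.35% of all genes. It was Ptges3, the HSP90 co-chaperone p23, at 411.58, 465.07, 420.4 and 449.4 CPM in scramble and 533.17, 553.66, 554.22 and 485.72 CPM in the Rbmx knockdown. The change of Ptges3 was 0.28 ± 0.07 (adjusted p = 0.0271, edgeR, and 0.274 without the block). In the Rbmxl1 knockdown 0 of the 15 were called, beside 4.46% of all genes. The medians of these regulators were −0.03 and −0.01 in the Rbmx and the Rbmxl1 knockdown. Of 7 other partners of ARNT, 3 could be tested (Npas1, Npas3 and Npas4). In either knockdown 0 of them were called, beside 8.35% and 4.46% of all genes. Ahr, the dioxin receptor, had a count of 0 in all libraries.

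Of 12 other oxygen-dependent dioxygenases, 2 were called higher in the Rbmx knockdown, beside 8.35% of all genes: P4ha1 at 0.51 ± 0.10 (adjusted p = 0.00957, edgeR) and P4ha2 at 0.39 ± 0.10 (adjusted p = 0.0310). Both encode collagen prolyl hydroxylases. In the Rbmxl1 knockdown 2 of the 12 were called, beside 4.46% of all genes. P4ha1 rose by 0.39 ± 0.10 (adjusted p = 0.0388, edgeR), and Kdm5a, a histone demethylase, fell by 0.23 ± 0.06 (adjusted p = 0.0330). Without the block the adjusted p was 0.467 and 0.738 for P4ha1 in the Rbmx and the Rbmxl1 knockdown, 0.461 for P4ha2 and 0.515 for Kdm5a (edgeR). The list's medians were −0.04 and 0.06, and the remaining members, mostly histone and DNA demethylases, did not pass.

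A list of 25 known HIF target genes, 24 of them tested, shows the values that Egln1 and Egln3 sit beside. It was chosen with earlier results of these data known, so its counts are a description. In the Rbmx knockdown 14 were called higher and 1 lower, beside 8.35% of all genes called, with a median log2 fold change of 0.39 and a range of −0.29 to 1.01. Under the Rbmxl1 knockdown 11 were called higher and 1 lower, beside 4.46% of all genes, with a median of 0.40 and a range of −0.32 to 1.42. Those highest were Ankrd37 (1.01 ± 0.19 and 1.42 ± 0.19), Pdk1, which limits pyruvate entry into mitochondria (1.01 ± 0.20 and 0.95 ± 0.20), Bnip3 of mitophagy (0.95 ± 0.20 and 0.97 ± 0.20) and the peptide hormone gene Adm (0.89 ± 0.17 and 1.03 ± 0.17). The glycolytic Pgk1 rose by 0.73 ± 0.13 and 0.57 ± 0.13, Aldoc by 0.76 ± 0.15 and 0.69 ± 0.15, and Slc2a1 by 0.67 ± 0.14 in both (all edgeR adjusted p under 0.05). Stc2 fell by 0.29 ± 0.06 and by 0.32 ± 0.06, and Vegfa, at −0.21 ± 0.07 (adjusted p = 0.0903) and −0.04 ± 0.07 (adjusted p = 0.835), did not pass.

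Most genes of the target list had a higher mean in libraries 1 and 2 than in libraries 3 and 4. These differences were not tested, and no share over all tested genes stands beside them. In scramble, libraries 1 and 2 were above libraries 3 and 4 in 20 of the 24 genes, with a median difference of 0.46 on the log2 scale, and in the Rbmx and Rbmxl1 knockdowns in 19 and 21, with medians of 0.54 and 0.37. In scramble the difference was 2.02 for Bnip3 and 1.92 for Pdk1, near 0 for Ero1l (0.03), Mxi1 (0.04) and Vegfa (0.05), and negative for Pfkfb3 (−0.53), Stc2 (−0.42), Hk2 (−0.31) and Hilpda (−0.22). These genes were named after their values were seen. Without the block 0 of the 24 were called in either knockdown (edgeR, 10 and 7 at an unadjusted p under 0.05). In replicates 1 and 2 alone 0 and 1 were called, where 4 and 30 of 17416 genes were called in all. In replicates 3 and 4 alone 11 and 12 were called, where 1818 and 992 of 17950 genes were. When 1 library or 1 replicate number was left out, the counts ran from 7 to 16 and from 2 to 13. Of the 12 neuroblastoma markers, 1 was called in each knockdown, beside 8.35% and 4.46% of all genes. It was Mycn, at 0.56 ± 0.12 (adjusted p = 0.0126, edgeR) and 0.66 ± 0.12 (adjusted p = 0.00844). Without the block its adjusted p was 0.278 and 0.369, and its part in these results was not tested.

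**Figure D4:**
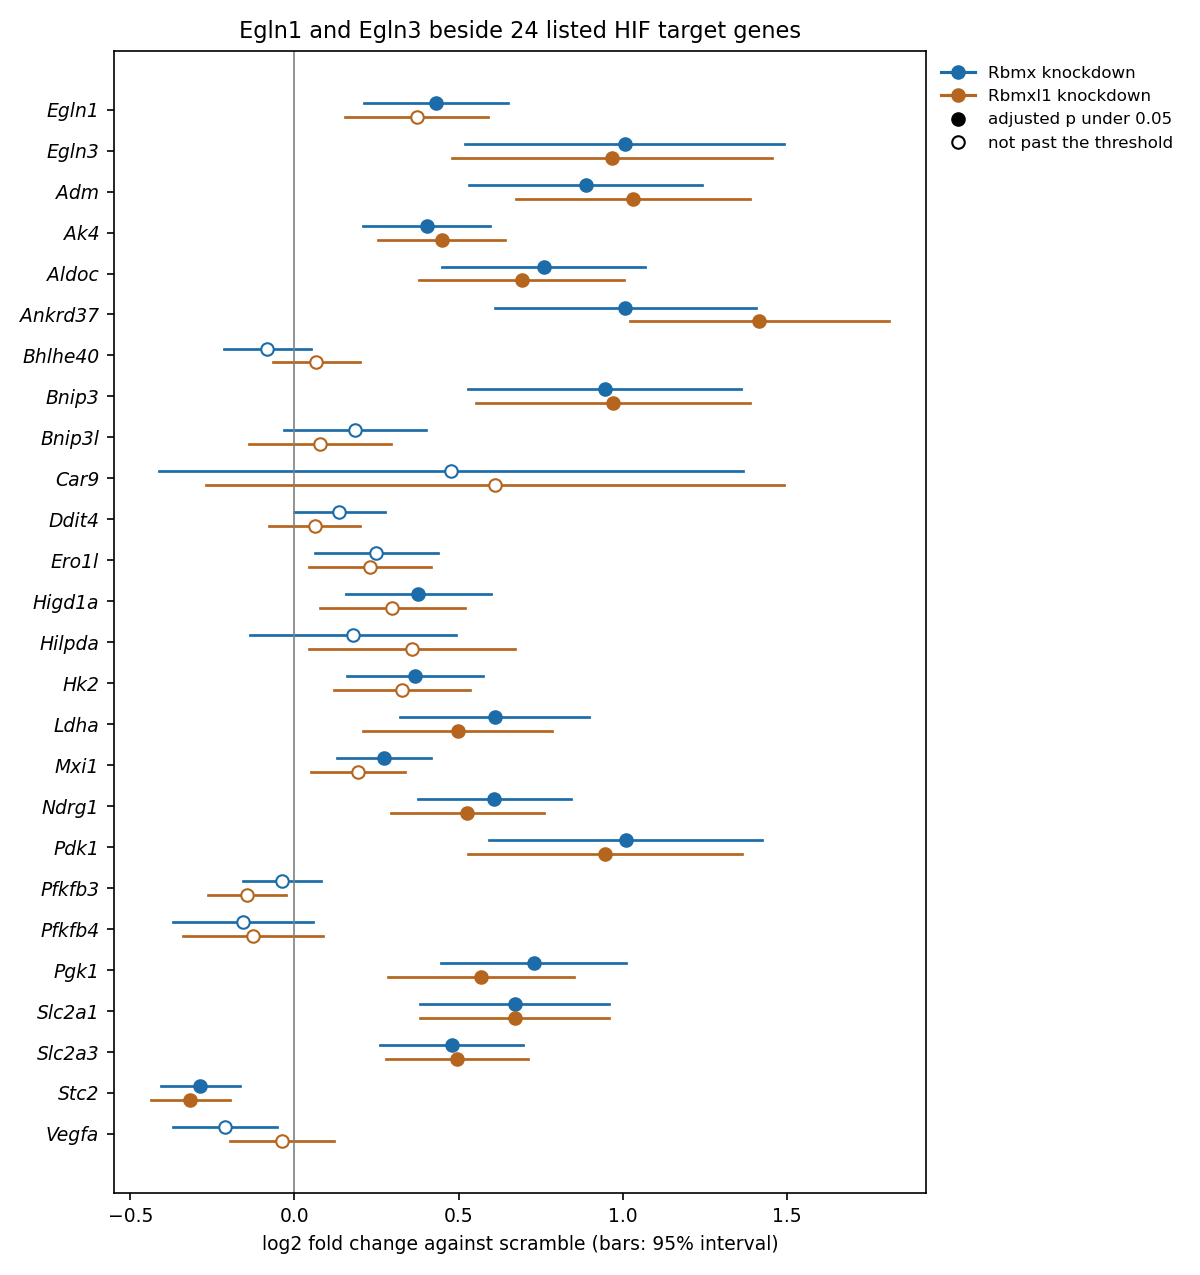
Log2 fold change against scramble with its 95% interval for Egln1, Egln3 and the 24 tested HIF target genes, from the edgeR fit with the block. Filled points mark an adjusted p under 0.05, and Egln1 and Egln3 lie inside the range of the list in both knockdowns.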

How the data were processed

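The authors deposited raw counts per gene, 1 table for each of the 12 libraries. The submitters' processing notes name mm10, cutadapt, STAR 2.5.3a, HTSeq 0.6.1p1, R 3.3.2 and DESeq2 1.16.1 without their roles. The annotation release and the strand setting are not given in the sources used here, although per the labels' protocols the kit is stranded, so genes that overlap others are uncertain. Rows that name no gene (5 per table, 52.33 to 57.37% of the totals) were left out. Symbols, positions and lengths come from GENCODE M21 (55141 of 55401 identifiers matched), and promoter stretches from RefSeq (GRCm38.p6, 9 of the 10 genes, Epas1 not matched).

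Counts were analysed with edgeR 4.0.16: filterByExpr (minimum count 10, minimum total 15), trimmed mean of M-values scaling, and a quasi-likelihood F-test with group and replicate number as terms over all 12 libraries. P-values were Benjamini-Hochberg adjusted over 17569 genes and called under 0.05. SEs were derived from the F statistic, and 95% intervals from the t quantile. Levels are scaled CPM, given as mean ± SD. Log2 CPM for likeness and pairing used a prior count of 2. The script was tested on simulated data. The labels do not say that same-numbered libraries are paired, and the block was chosen with earlier results of these data known. All 12 same-numbered pairs correlated at 0.195 to 0.524, and the 12 pairs of different numbers in the same set at 0.100 to 0.431. These ranges overlap, so the values do not establish a pairing by number.

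The 10 genes and the pathway lists were chosen with earlier results of these data known. All 10 were named. From the lists, called genes were named, at most 8 per list and comparison by p-value, and values for other members were added after they were seen. Alternatives were no block, DESeq2 size factors, the DESeq2 Wald test (1.42.0), no filter, each library or replicate number left out, and replicate sets 1 and 2 or 3 and 4 alone.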

Additional observations from a re-analysis of the deposited data

Results flagged for a closer look

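In 1 of 25 sets of 4 libraries checked for the members, a single library lay far from the others: Arnt2 stood at 0.0630 CPM in Rbmxl1 knockdown replicate 2, from 3 reads, while the other 3 libraries of that group were at 0. About 1 in 20 such sets is marked by chance.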

How the results depend on the processing

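Of 462 alternative values for the tested genes, 426 kept their side of the threshold, 28 lost a call and 8 gained one. Most of the 426 belong to results not called in the full data, the direct comparison included. Only Egln1 in the Rbmx knockdown and Egln3 in both knockdowns had a call to lose. They kept it in 14, 12 and 12 of 22 alternatives each. The sign was opposite to that in the full data in 51, none of them called in either fit, and in 5 of these the change exceeded its SE. They were Vhl in replicates 3 and 4 (−0.18 in the Rbmx knockdown, −0.16 in the direct comparison), Egln2 in the same set (−0.15, direct), and Egln1 in the direct comparison without Rbmx knockdown replicate 2 (−0.10) or without replicate 2 (−0.12). Without the replicate block 0 of the 7 genes were called in either knockdown, and genome-wide 1 gene was called in each, against 1467 and 783 with it. In replicates 1 and 2 alone 0 of the 7 were called in either knockdown (genome-wide 4 and 30). In replicates 3 and 4 alone, Egln1 and Egln2 were called in the Rbmx knockdown and Egln1 in the Rbmxl1 knockdown, so the genes differed from those of the full data (genome-wide 1818 and 992). In the Rbmxl1 knockdown the count was 2 with the DESeq2 Wald test and 2 with no filter, because Egln1 passed as well (genome-wide 1279 and 1243). With 1 library or 1 replicate number left out, the count of the 7 genes ran from 0 to 2 in both knockdowns, and genome-wide from 146 to 1904 and from 100 to 1032. The cause of these shifts was not tested. Egln1 and Egln3 kept a positive sign in all 22 alternatives of each knockdown, with 14 and 7 calls for Egln1 and 12 and 12 for Egln3. In the direct comparison the count was 0 in every alternative run. Hif3a, Epas1 and Arnt2 had too few or no reads for a test, and the reads behind Egln3 limit its precision.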
